A study of Mus musculus and Acomys cahirinus with 84 samples.

Results

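Primary skin fibroblasts of wild mice were compared 12 d after irradiation with 20 Gy against untreated cells of the same animals that had been passaged, a comparison of 8 of the 84 libraries in the series. The 4 libraries at 20 Gy and the 4 libraries labelled untreated passaged were chosen by population, time and treatment in the labels and paired by replicate number. The series also holds fibroblasts of mice labelled C56BL6 and of the African spiny mouse, with irradiation at 10 or 20 Gy and collection after 24 h or 12 d. The libraries were stranded, made from polyA RNA, and all 12 d libraries belonged to 1 batch.

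The library names carry 1 animal code per replicate number, so that by label a number stands for the same animal in every group. The labels name no transgene or drug, no age and no sex. The 20 Gy cells had been irradiated and kept for 12 d, and the passaged cells were untreated and had been passaged at a schedule that the labels do not state. A further 4 wild mouse libraries at 12 d were labelled untreated without passaging, and 4 had received 10 Gy. The same 20 Gy and passaged groups exist for C56BL6 mice (4 libraries each) and serve as the comparison between populations. The 20 Gy and passaged cells differ both in radiation and in passaging, and within this contrast the effects of the 2 cannot be told apart. The untreated group, not labelled as passaged, is therefore given beside it. P-values measure the spread between these cultures.

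The replicate numbers of the 12 d libraries did not all match the animals of the 24 h libraries. A gene counted as on in 1 animal and off in another when all libraries of the first were above 1 CPM (counts scaled to a common library total) and all libraries of the second were below 0.1 CPM. Between the 12 d libraries of replicates 1 and 4 there were 0 such genes, against 22 to 83 between the other pairs of numbers. The 12 d libraries of replicates 2, 3 and 4 had 0 such genes against the 24 h libraries of their own number, whereas those labelled replicate 1 had 64 against 24 h replicate 1 and 0 against 24 h replicate 4. The libraries labelled replicate 1 at 12 d therefore go against their label, and the 8 libraries hold 3 distinguishable animals. Replicates 1 and 4 differed beyond sampling noise in both groups. Their chi-square over genes was 19.7 (passaged) and 32.8 (20 Gy) times its degrees of freedom, against 84.4 to 296 for the other pairs. That shows that they are not the same library, but not that they are different animals. They were entered as separate cultures, so p-values with all 4 numbers count them as independent. Results are given with all 4 numbers, and the list counts also without replicate 1.

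The 8 libraries held between 23.4 and 33.7 M counts each. A floor of 3 counts in a library corresponded to 0.089 to 0.128 CPM, which covers counting error only. Between 20037 and 20987 genes had a count in the passaged libraries and between 21873 and 24882 in the 20 Gy libraries. Mitochondrial genes took 0.959 to 1.30% of counts in passaged and 1.39 to 2.06% in 20 Gy libraries. Fibroblast markers dominated: Col1a1, Col1a2, Vim and Pdgfrb were above 490 CPM in all 8 libraries, but Dcn was at 0.326 to 8.06 CPM and Lum at 0 to 0.595 CPM in passaged cells. The summed level of 8 keratinocyte markers was 1.96 to 13.7 CPM in passaged and 1.74 to 8.15 CPM in 20 Gy libraries, with 5 of 8 below 0.5 CPM in all 4 libraries of either group. Among them Dsp changed by log2 2.33 (adjusted p = 0.00224) and Trp63 by −1.78 (adjusted p = 0.00133). The 8 macrophage and leukocyte markers summed to 18.8 to 46.2 CPM and 24.0 to 42.6 CPM, with C1qa and C1qb at 0 throughout and Ptprc at most at 0.181 CPM. Others of that list were present and differed: Lyz2 was at 0.981 to 4.45 CPM in passaged and 10.6 to 16.8 CPM in 20 Gy libraries (log2 2.60, adjusted p = 3.49e-04), Cd68 changed by 1.10 (adjusted p = 0.00535) and Csf1r by −0.73 (adjusted p = 0.00261). The skeletal muscle sum was 20.9 to 515 CPM in passaged and 11.2 to 179.6 CPM in 20 Gy libraries. Its high end was replicate 3 in both groups, through Des at 426 and 172 CPM. Acta1 of that list was lower at 20 Gy (log2 −1.71, adjusted p = 0.0215). The 6 smooth muscle and pericyte markers summed to 502 to 1253 CPM in passaged and 531 to 908 CPM in 20 Gy libraries. Rgs5 (log2 2.90, adjusted p = 1.90e-04), Cspg4 (0.98, adjusted p = 0.0022), Notch3 (0.97, adjusted p = 0.00595) and Mcam (0.66, adjusted p = 0.0469) were higher at 20 Gy. Myh11 (adjusted p = 0.237) and Cnn1 (adjusted p = 0.85) missed the threshold. Replicate 3 also stood apart in Myh11 (344 CPM in passaged and 169 CPM at 20 Gy, where the other 6 libraries were between 19.5 and 113 CPM). Adipocyte markers summed to 34.6 to 134 CPM in passaged and 15.6 to 47.7 CPM in 20 Gy libraries. Of them Fabp4 (−1.71, adjusted p = 2.23e-04) and Pparg (−0.76, adjusted p = 0.00338) were lower. Endothelial markers summed to 0.77 to 9.95 and 0.979 to 12.3 CPM. Melanocyte and Schwann markers summed to 8.65 to 36.5 and 13.4 to 44.3 CPM. Pecam1 (2.55, at most at 0.968 CPM), Tek (1.73), Mitf (0.62) and Pmel (1.05) were called higher. The part of these cells in the results was not tested. In bulk libraries, fewer cells of a type and less RNA per cell cannot be told apart.

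Ionising radiation breaks DNA, and broken DNA activates p53, which raises the CDK inhibitor p21 and its own antagonist Mdm2. Fibroblasts given a dose that they cannot repair leave the cell cycle for good, with loss of the transcripts of replication and mitosis and secretion of cytokines and proteases, a state called senescence. DNA in the cytoplasm of such cells can be sensed through cGAS and STING, which leads to interferon and to the transcription of interferon-stimulated genes through the factor ISGF3, which binds the interferon-stimulated response element.

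In 20 Gy cells, 5472 of 14384 genes tested differed from passaged cells at an adjusted p under 0.05 (edgeR quasi-likelihood test with the replicate number as a block and Benjamini-Hochberg adjustment over all genes). That is 38% of genes: 2837 (19.7%) were higher and 2635 (18.3%) lower at 20 Gy, and 992 of the higher and 581 of the lower genes had changed at least 2-fold (6.90% and 4.04%). The median log2 fold change of all genes was 0.02. All 34 mitosis genes, 34 of 39 replication genes, 20 of 22 homologous recombination genes and 17 of 23 cholesterol synthesis genes fell. All 36 interferon-stimulated genes tested, 26 of 32 lysosomal genes, 11 of 14 complement genes and 18 of 29 p53 targets rose. Without replicate 1 the test called 4084 genes, of which 3939 were also called with all 4 numbers in the same direction (96.4% of the smaller list and 72.0% of the larger). With replicates 1 and 4 added together as 1 animal it called 3982, without replicate 4 it called 3241, and without the replicate block 1510. Of 64 genes that are named by the rule and were called, 63 kept their call without replicate 1 and 38 without the block.

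**Figure D1:**
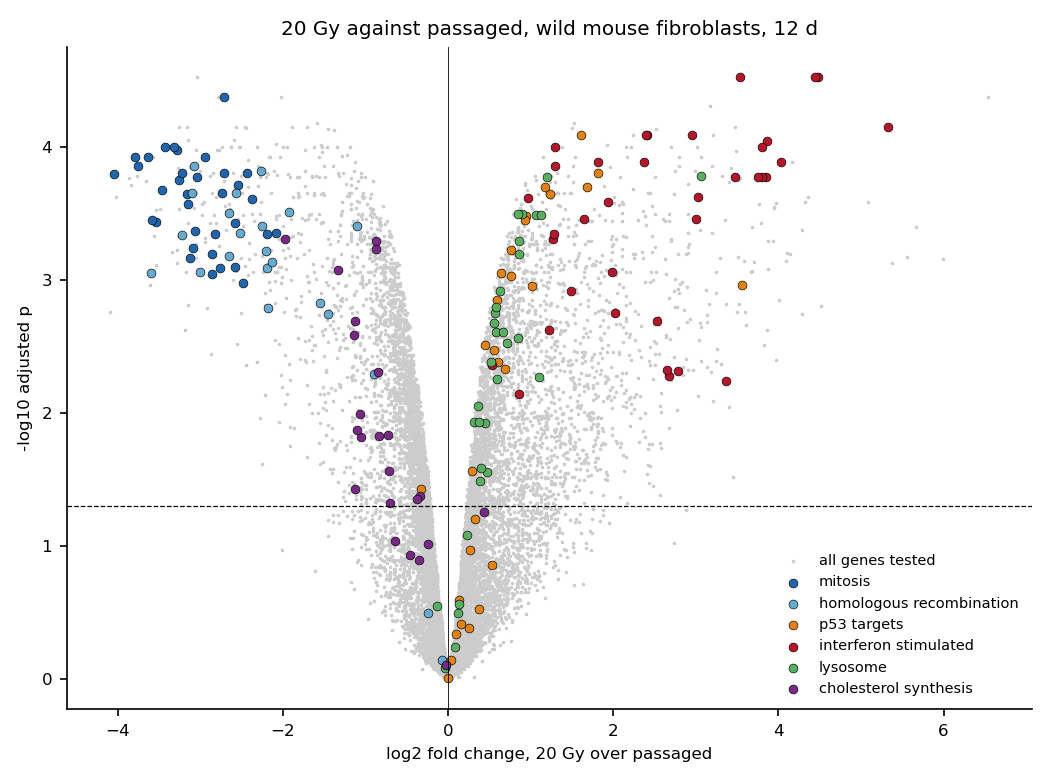
Log2 fold change of 20 Gy over passaged (x axis) against −log10 of the adjusted p (y axis) for 14384 genes, with 6 gene lists coloured and the 0.05 threshold dashed. The 34 mitosis genes lie on the left above the dashed line, and the 36 interferon-stimulated genes on the right above it.

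Genes of mitosis were lower at 20 Gy for all 34 listed members, where 18.3% of all genes were called lower. Their median log2 fold change was −3.05, with medians of −2.28, −3.50, −3.55 and −2.55 within replicates 1 to 4. All 34 were also called without replicate 1 and without the block. Mki67 (chr7:135291513-135318299, minus strand, GRCm39), which coats mitotic chromosomes and marks cycling cells, fell most among all named genes. Its level was 137, 147, 93.8 and 180.3 CPM in passaged replicates 1 to 4 and 10.5, 6.13, 2.61 and 19.8 CPM at 20 Gy. Every 20 Gy library was below every passaged library, replicate 3 was lowest in both groups, and the log2 fold change was −4.05 (SE 0.30, adjusted p = 1.60e-04).

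Ccnb1 encodes cyclin B1, which drives entry into mitosis with CDK1. It was at 43.6, 38.8, 30.3 and 53.8 CPM in passaged cells and at 9.91, 2.58, 1.30 and 8.76 CPM at 20 Gy, with no overlap (log2 fold change −3.13, SE 0.36, adjusted p = 6.79e-04). The remaining genes among the 8 that fell most were Kif14 (−4.02), Kif11 (−3.76) and Kif15 (−3.66), kinesin motors of the spindle and midbody, Knl1 (−3.79), a kinetochore scaffold, Bub1b (−3.64), a spindle checkpoint kinase, Pclaf (−3.86), a PCNA-binding factor, and E2f7 (−3.77), a transcriptional repressor of the E2F family. For each of these 7 genes, no 20 Gy library reached the lowest passaged library.

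Replication genes were lower for 34 of 39 members, with a median of −1.60. Mcm5, a subunit of the replicative helicase, was at 52.5, 80, 29.4 and 80.6 CPM in passaged cells and at 9.08, 4.03, 3.59 and 12.6 CPM at 20 Gy (log2 fold change −3.08, SE 0.28, adjusted p = 2.86e-04). Uhrf1, which brings the maintenance methyltransferase to new DNA, changed by −3.15 (SE 0.18, adjusted p = 8.93e-05). Rrm2, a ribonucleotide reductase subunit, fell far less: it was at 218, 217, 30.7 and 241 CPM in passaged cells and at 142, 70.0, 8.23 and 102 CPM at 20 Gy. The groups overlapped because replicate 3 was low in both, and the change of −1.30 (SE 0.19, adjusted p = 0.00186) was not called without the block (adjusted p = 0.451). The members not called were Gins3 (−0.47), Gins4 (−0.11), Fen1 (−0.45), E2f1 (0.07) and E2f2 (−0.48). Without replicate 1 the count was again 34 of 39.

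Homologous recombination genes, which repair breaks against the sister chromatid, were lower for 20 of 22 members with a median of −2.23, with 20 called without replicate 1 and 18 without the block. Exo1, a resection nuclease, was at 9.74, 10.0, 4.34 and 13.6 CPM in passaged cells and at 1.30, 0.258, 0.0725 and 2.03 CPM at 20 Gy. Its lowest passaged library, replicate 3, was above its highest 20 Gy library, replicate 4 (log2 −3.60, SE 0.45, adjusted p = 8.83e-04, and 0.0512 without the block). Fanci, of the Fanconi anaemia pathway, changed by −3.22 (SE 0.33, adjusted p = 4.62e-04), while Xrcc3 (−0.25) and Fancc (−0.08) were not called.

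Of the 22 nuclear envelope and chromatin genes, 16 were lower and 0 higher, also without replicate 1, while 10 were lower without the block. Lmnb1, which encodes lamin B1 of the nuclear lamina and is often lost in senescent cells, was at 45, 67.9, 57.6 and 68.6 CPM in passaged cells and at 7.10, 10.6, 6.09 and 10.6 CPM at 20 Gy. The groups were far apart, and the log2 fold change was −2.79 (SE 0.12, adjusted p = 4.21e-05). Hmgb2, a chromatin protein that bends DNA, was at 33.8, 37.9, 26.8 and 37.5 CPM and at 7.25, 5.13, 5.11 and 6.89 CPM (−2.45, SE 0.13, adjusted p = 7.18e-05), again without overlap. Lmna, the lamin A gene of the same lamina, changed by 0.10 and was not called.

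**Figure D2:**
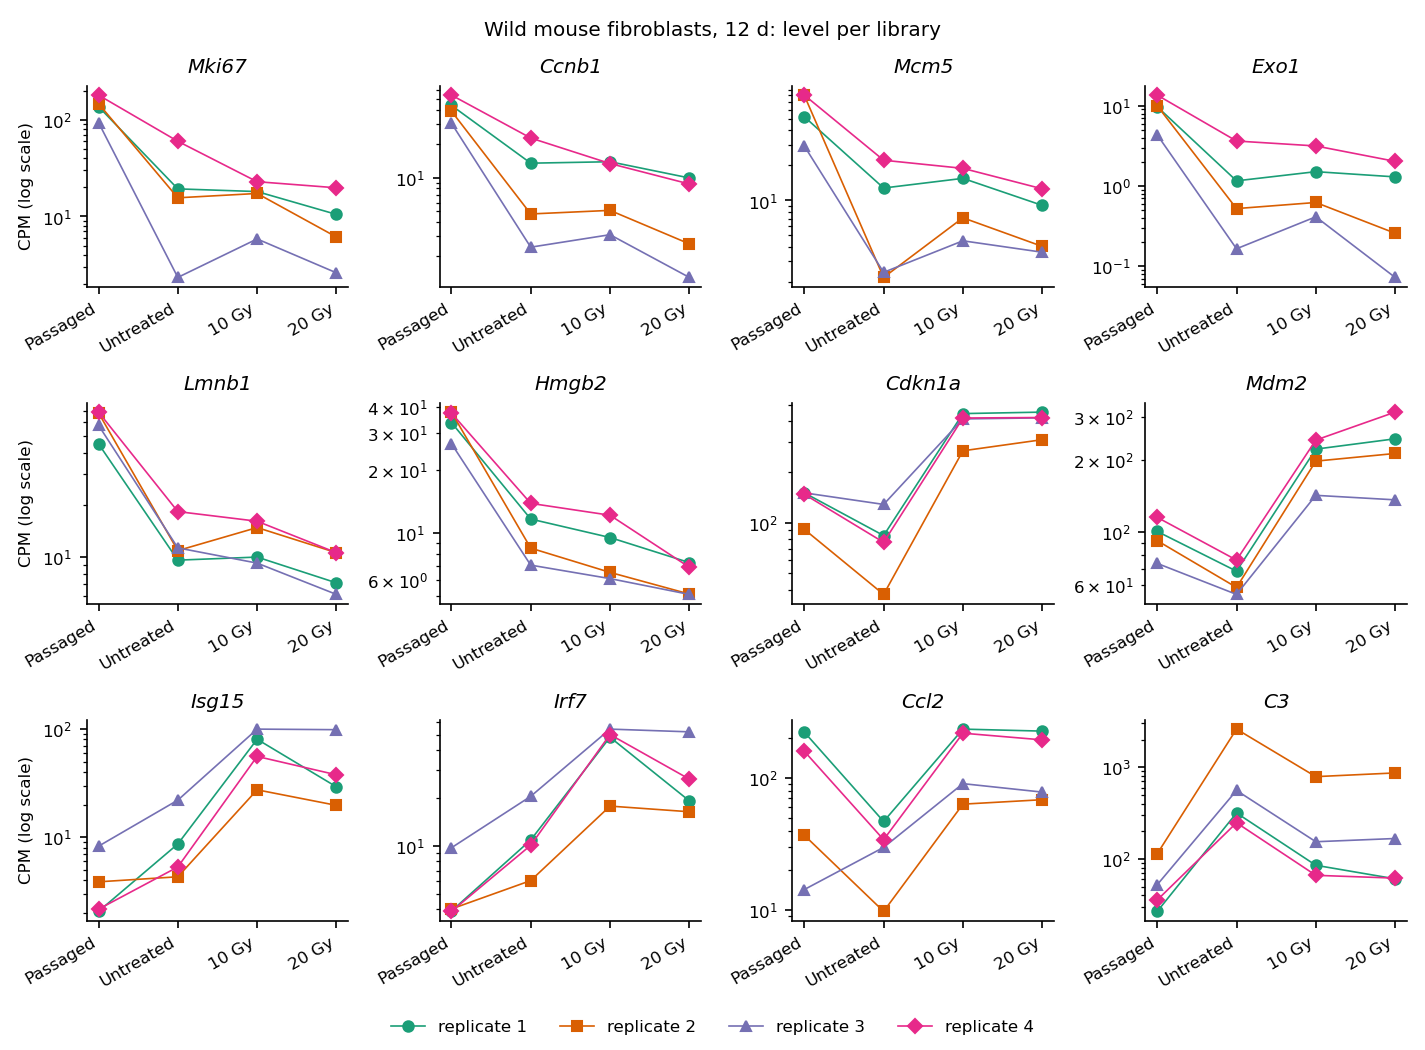
CPM on a log axis (y) of 12 genes in the 4 wild mouse groups at 12 d (x), with 1 line per replicate number. Mki67, Ccnb1, Mcm5, Exo1, Lmnb1 and Hmgb2 are highest in passaged cells, whereas Cdkn1a and Mdm2 are high at 10 and 20 Gy.

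Of the 29 p53 targets tested, 18 were higher at 20 Gy than in passaged cells, where 19.7% of all genes were called higher, and 1 was lower. The median was 0.59. Cdkn1a (chr17:29309936-29319701, plus strand), which encodes p21, was at 149.9, 91.1, 149.9 and 147 CPM in passaged cells and at 451, 309.6, 417 and 419 CPM at 20 Gy. Replicate 2 was lowest in both groups, the groups did not overlap, and the change was 3.06-fold (log2 1.61, SE 0.09, adjusted p = 8.19e-05). Mdm2, the ubiquitin ligase that removes p53, was at 100.5, 92.0, 74.0 and 115 CPM and at 244, 212, 136 and 315 CPM (log2 1.23, SE 0.11, adjusted p = 2.27e-04).

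Ccng1, a p53-induced cyclin, changed by 0.94 (SE 0.09, adjusted p = 3.33e-04) and the receptor gene Eda2r by 0.93 (SE 0.09, adjusted p = 3.53e-04). Both were higher in 4 of 4 pairs, but Eda2r overlapped between groups, because its 20 Gy library of replicate 3, at 31.1 CPM, was below passaged libraries of replicates 1 and 4, at 36.3 and 37.4 CPM. Without the block Eda2r was not called (adjusted p = 0.13). The largest rises in the list were those of 2 cell death genes. Pmaip1, which encodes the BH3-only protein Noxa, went from 0.593, 0.217, 0.770 and 0.264 CPM to 6.49, 4.36, 2.75 and 8.38 CPM (log2 3.56, SE 0.46, adjusted p = 0.00109). The death receptor gene Fas went from 11.8, 6.85, 11.2 and 9.37 CPM to 41.5, 29.8, 28 and 34.4 CPM (log2 1.81, SE 0.13, adjusted p = 1.58e-04).

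Gdf15, a stress-induced cytokine of the same list, was at 10.2, 5.11, 5.57 and 20.9 CPM in passaged cells and at 15.8, 5.10, 3.41 and 35.5 CPM at 20 Gy. It was higher in replicates 1 and 4 and lower in 2 and 3, and was not called (log2 0.25, adjusted p = 0.411), although it passed the threshold without replicate 3 (0.51, adjusted p = 0.0454). The 1 target called lower was Apaf1 (−0.33, adjusted p = 0.0376), which was not called without replicate 1 (adjusted p = 0.118). Without replicate 1 there were 17 higher and 0 lower targets, and without the block 10 and 0.

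Among 10 CDK inhibitors and pocket proteins, 3 were higher and 4 lower (3 and 3 without replicate 1), where 19.7% of all genes were called higher and 18.3% lower. Cdkn2a, which encodes p16 and p19Arf, was at 90.0, 61, 69.3 and 81.9 CPM in passaged cells and at 81.3, 69.6, 80.6 and 85.5 CPM at 20 Gy. The groups overlapped and the change was not called (log2 0.11, SE 0.09, adjusted p = 0.353). Cdkn2b, which encodes p15, was higher in 4 of 4 pairs but overlapped and missed the threshold (log2 0.24, SE 0.10, adjusted p = 0.0867). The Rb relative p107, encoded by Rbl1, was at 23.4, 25.7, 16.3 and 31.5 CPM in passaged cells and 6.24, 5.81, 7.47 and 6.95 CPM at 20 Gy, without overlap (log2 −1.82, SE 0.19, adjusted p = 4.42e-04). Rb1 (0.55) and Rbl2 (0.59) rose, while Cdkn1b (−0.63), Cdkn2c (−1.22) and Cdkn2d (−0.37) fell. Of 13 BCL2 family genes, 5 rose and 2 fell, against the same shares of all genes. Those that rose included Pmaip1 and the survival gene Bcl2l1 (0.63, SE 0.10, adjusted p = 0.00226), and those that fell were Bak1 (−0.50) and Bmf (−0.81). Without replicate 1, 4 rose and 1 fell, and without replicate 4, 3 rose.

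All 36 interferon-stimulated genes tested, of 38 listed, were higher at 20 Gy, against 19.7% of all genes. Oasl1 and Mx1 did not pass the filter on low counts. The median log2 fold change was 2.59, all 36 were higher in each of the 4 pairs, and all 36 were also called without replicate 1, while 30 were called without the block. The sequences upstream of 5 of them are shown because the response element is what the textbook pathway acts through. Each line gives the 250 bases before the start of the Ensembl canonical transcript in GRCm39, with matches to the element core TTTCNNTTTC on either strand (GAAANNGAAA in reverse) in capitals. The windows are chr5:120887934-120888183 (minus strand) for Oas2, chr19:34618021-34618270 (plus) for Ifit1, chr19:34560649-34560898 (plus) for Ifit3, chr4:156285304-156285553 (minus) for Isg15 and chr7:140846399-140846648 (minus) for Irf7.
Oas2: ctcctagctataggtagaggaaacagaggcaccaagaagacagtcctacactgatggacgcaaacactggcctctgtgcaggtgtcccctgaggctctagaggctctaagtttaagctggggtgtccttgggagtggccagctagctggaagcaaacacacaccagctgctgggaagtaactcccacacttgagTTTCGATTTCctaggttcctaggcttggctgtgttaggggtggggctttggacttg
Ifit1: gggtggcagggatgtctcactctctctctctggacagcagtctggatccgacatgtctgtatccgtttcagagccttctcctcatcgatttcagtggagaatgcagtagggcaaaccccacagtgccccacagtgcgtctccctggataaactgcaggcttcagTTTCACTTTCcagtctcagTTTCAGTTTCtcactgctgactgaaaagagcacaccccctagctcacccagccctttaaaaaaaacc
Ifit3: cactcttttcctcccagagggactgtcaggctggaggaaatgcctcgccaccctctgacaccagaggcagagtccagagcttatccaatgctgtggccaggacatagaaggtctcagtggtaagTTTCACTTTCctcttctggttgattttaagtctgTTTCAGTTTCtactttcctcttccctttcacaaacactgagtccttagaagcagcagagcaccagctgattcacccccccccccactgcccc
Isg15: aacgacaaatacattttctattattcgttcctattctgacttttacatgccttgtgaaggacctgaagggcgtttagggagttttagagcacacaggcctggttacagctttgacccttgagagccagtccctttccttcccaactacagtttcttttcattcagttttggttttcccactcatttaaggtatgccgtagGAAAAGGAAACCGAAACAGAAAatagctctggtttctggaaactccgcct
Irf7: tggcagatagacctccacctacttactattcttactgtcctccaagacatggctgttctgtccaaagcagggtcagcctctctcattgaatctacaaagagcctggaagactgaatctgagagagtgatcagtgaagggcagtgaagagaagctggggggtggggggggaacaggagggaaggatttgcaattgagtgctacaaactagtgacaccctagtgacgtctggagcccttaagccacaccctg
Matches began 56 bases before the start in Oas2, 86 and 67 in Ifit1, 126 and 92 in Ifit3, and 50, 44 and 38 in Isg15, where they overlap one another. The window of Irf7 held 0 matches, which says only that these letters do not occur in it. Of the 36 tested members, 15 had a match in this window (41.7%), against 459 of 14345 promoters of all tested genes (3.20%) and 3 of 34 mitosis genes (8.82%). The motif TTTGAA of cell cycle promoters (TTCAAA in reverse) was in 7 of 34 mitosis genes (20.6%), 7 of 36 interferon-stimulated genes (19.4%) and 12.6% of all promoters. A CCAAT box (ATTGG in reverse) was in 44.1% of mitosis promoters and 35.7% of all.

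Oas2 encodes a synthetase of 2′-5′ oligoadenylate that activates RNase L, and it rose most among these genes. Its level was 0.127, 0.326, 0.245 and 0.147 CPM in passaged cells, near the floor of 3 counts, and 4.22, 11.9, 6.2 and 11.5 CPM at 20 Gy. The groups were far apart, and the fitted log2 fold change was 5.33 (SE 0.28, adjusted p = 7.05e-05). Ifit1, whose product binds RNA without the cap methylation of the host, was at 1.36, 3.44, 6.06 and 1.85 CPM and at 36.8, 49.9, 149.5 and 46.6 CPM (log2 4.48, SE 0.17, adjusted p = 2.99e-05). Replicate 3 was highest in both groups.

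Ifit3, a member of the same family as Ifit1, changed by 4.44 (SE 0.15, adjusted p = 2.99e-05). Isg15 (chr4:156283883-156285303, minus strand), a ubiquitin-like modifier, was at 2.07, 3.88, 8.27 and 2.17 CPM in passaged cells and at 29.2, 19.7, 98.3 and 37.7 CPM at 20 Gy. Its groups did not overlap, and the change was 3.48 (SE 0.27, adjusted p = 1.68e-04). The transcription factor gene Irf7, which amplifies interferon production, was at 3.90, 4.02, 9.74 and 3.88 CPM and at 19.2, 16.4, 52.1 and 26.3 CPM (log2 2.41, SE 0.14, adjusted p = 8.19e-05). Trim30a, an interferon-induced member of the tripartite motif family, changed by 4.03 (SE 0.28, adjusted p = 1.29e-04).

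The smallest change in the list was that of Gbp2 (0.53), a guanylate-binding protein. Oas, Ifit and Trim30 genes have near copies in the mouse genome, and reads that map to several places were not counted, so single members of these families are uncertain. The genes listed under nucleic acid sensing, not all of them sensors, did not share this direction: of 14 tested, 4 rose and 5 fell, and the median was 0.00. Of all genes, 19.7% were called higher and 18.3% lower. Cgas, which encodes the DNA sensor, was at 6.73, 5.91, 5.15 and 10.4 CPM in passaged cells and at 3.21, 3.0, 2.32 and 3.82 CPM at 20 Gy, without overlap (log2 −1.14, SE 0.15, adjusted p = 0.00131). Sting1, its adaptor, changed by −0.93 (adjusted p = 4.05e-04), whereas Tlr3 (1.08), a sensor of double-stranded RNA, Lgals3bp (1.29), a secreted glycoprotein, Adar (0.70) and Dnase2a (0.53) rose. These 4 and 5 calls also stood without replicate 1.

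Of 17 genes of MHC class I and its antigen processing, 9 rose and 0 fell, with a median of 0.55 (9 and 0 without replicate 1, 7 and 0 with replicates 1 and 4 added together, and 3 and 0 without the block). B2m, the light chain, was at 239.6, 258, 402 and 222 CPM in passaged cells and at 564, 445, 828 and 519 CPM at 20 Gy, without overlap (log2 1.10, adjusted p = 3.95e-04). H2-T23 (1.28, SE 0.11, adjusted p = 2.28e-04) and H2-Q4 (1.23, SE 0.19, adjusted p = 0.00216) changed most among the heavy chains with at least 5 CPM. The H2-Q4 groups overlapped, and its call was lost without the block (adjusted p = 0.364). H2-K1 was at 37.5, 22.4, 38.8 and 35.4 CPM and at 63.6, 24.1, 55.6 and 56.7 CPM, and its call (log2 0.55, adjusted p = 0.00941) was lost without replicate 4 (adjusted p = 0.0547), with replicates 1 and 4 added together (adjusted p = 0.0508) and without the block (adjusted p = 0.251). Class I genes are variable between mouse populations and similar to one another, so their levels after mapping to the reference genome are uncertain.

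Genes of the secretory phenotype rose for 22 of 37 members tested, of 46 listed, and fell for 0, with a median of 0.72. Without replicate 1, 21 rose and 1 fell; without replicate 3, 4 fell; without the block, 5 rose and 0 fell. Il1a, Il1b, Cxcl2, Ccl5, Csf2, Mmp9, Mmp10, Mmp12 and Areg did not pass the filter. Il6, the main cytokine of the phenotype, was at 16.9, 15.7, 32.2 and 10.4 CPM in passaged cells and at 20.9, 19.8, 70.5 and 20.6 CPM at 20 Gy. It was higher in 4 of 4 pairs but the groups overlapped, and the call (log2 0.73, SE 0.16, adjusted p = 0.0101) was lost without replicate 4 (adjusted p = 0.0515) and without the block (adjusted p = 0.341).

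Ccl2, a chemokine for monocytes, was at 222, 36.8, 14.3 and 159 CPM and at 226, 68.4, 78.1 and 194 CPM, so that replicates 1 and 4 were high in both groups and the difference missed the threshold (log2 0.89, SE 0.35, adjusted p = 0.0824). Ccl8, a related chemokine, was at 1.02, 0.145, 0 and 1.23 CPM and at 12.3, 13.3, 0.797 and 16 CPM (log2 4.29, SE 0.43, adjusted p = 4.19e-04), with replicate 3 low in both groups. The Ccl8 groups overlapped, and the call was lost without the block (adjusted p = 0.0748). Mmp3, a matrix protease of broad specificity, was at 0, 0.0725, 153 and 0.117 CPM in passaged cells and at 1.12, 4.84, 958 and 2.33 CPM at 20 Gy. It was higher in 4 of 4 pairs (log2 3.29, SE 0.38, adjusted p = 6.89e-04), but its level depended on the animal far more than on the group, with replicate 3 above all others, and without the block the adjusted p was 0.595. Icam1, an adhesion molecule for leukocytes, went from 5.97, 5.04, 5.43 and 4.58 CPM to 30.1, 35.3, 16.7 and 33.5 CPM (log2 2.44, adjusted p = 2.23e-04). Igfbp5, a carrier of insulin-like growth factors, varied from 1.23 to 164 CPM within passaged cells and was not called (log2 1.04, adjusted p = 0.0800); it passed the threshold without replicate 2 (0.58, adjusted p = 0.0467) and without replicate 3 (1.40, adjusted p = 0.0240).

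The named gene that rose most was Saa3 (chr7:46361422-46365576, minus strand), which encodes an acute-phase serum amyloid A protein. It was at 0.678, 0.399, 13.1 and 0.734 CPM in passaged cells and at 28.7, 18.8, 1787 and 67.5 CPM at 20 Gy. Each pair rose, replicate 3 was far above the others in both groups, and the lowest 20 Gy library was above the highest passaged library (log2 6.54, SE 0.29, adjusted p = 4.21e-05, and 0.0759 without the block). Serpine2, an inhibitor of thrombin and other serine proteases, went from 0.678, 0.544, 1.54 and 1.03 CPM to 22.1, 12.8, 13.2 and 19.6 CPM (log2 4.17, SE 0.29, adjusted p = 1.29e-04). Ccn3, a matricellular protein, went from 1.95, 0.181, 1.89 and 3.23 CPM to 47.7, 3.39, 8.16 and 103 CPM (log2 4.10, SE 0.46, adjusted p = 6.27e-04).

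**Figure D3:**
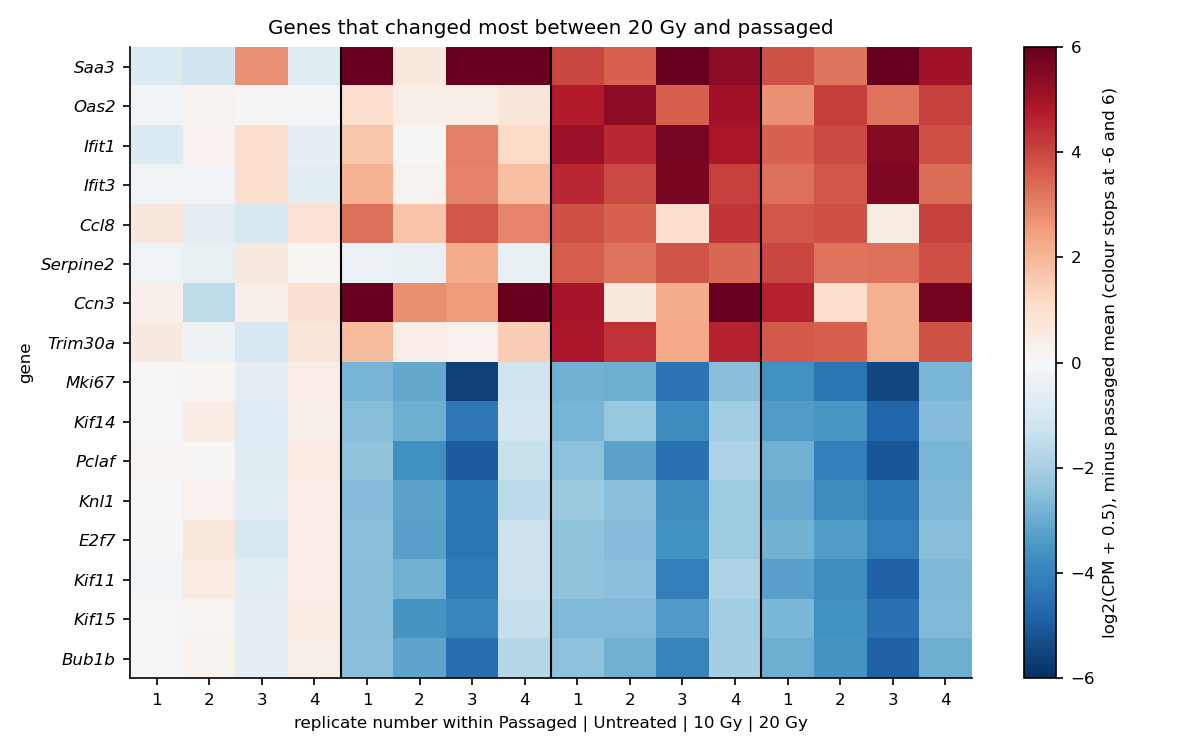
The 8 genes that rose and the 8 that fell most (rows) in the 16 wild mouse libraries at 12 d (columns), as log2(CPM + 0.5) minus the mean of the 4 passaged libraries. Of the 8 higher genes, all but Serpine2 are also above the passaged mean in the 4 untreated cultures, and the 8 lower genes are below it in all 3 other groups.

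Complement genes rose for 11 of 14 members tested and fell for 1, with a median of 1.68 (9 and 1 without replicate 1, 4 and 0 without the block). C3, the component on which all pathways converge, was at 26.8, 114, 52.4 and 35.7 CPM in passaged cells and at 60.7, 866, 167 and 61.8 CPM at 20 Gy (log2 1.67, SE 0.31, adjusted p = 0.00516). Serping1, the inhibitor of C1, changed by 2.26 (SE 0.33, adjusted p = 0.00170) and Cd55, which speeds the decay of C3 convertases, by 2.21 (SE 0.14, adjusted p = 1.01e-04). In these 3 genes all 4 pairs rose and the groups overlapped, since animals differed severalfold, and none of the 3 was called without the block (adjusted p = 0.16, 0.381 and 0.0974).

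Lysosomal genes rose for 26 of 32 members tested and fell for 0, with a median of 0.58; without replicate 1, 22 rose, and without the block 9. Gpnmb, a lysosomal glycoprotein, went from 4.83, 6.13, 1.30 and 7.52 CPM to 32.9, 89.5, 11.1 and 40 CPM (log2 3.06, SE 0.23, adjusted p = 1.65e-04). Ctsd, the aspartic protease cathepsin D, went from 238, 262, 370.3 and 220.1 CPM to 552, 604, 739.6 and 537 CPM, without overlap (log2 1.20, SE 0.09, adjusted p = 1.68e-04). Glb1, whose product is the β-galactosidase stained in senescent cells, was at 88.0, 97.6, 129 and 78.1 CPM and at 82.8, 97.0, 93.7 and 73.0 CPM, lower in 4 of 4 pairs by less than the threshold required (log2 −0.14, SE 0.09, adjusted p = 0.282).

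Cholesterol synthesis genes fell for 17 of 23 members and rose for 0, with a median of −0.84 (17 without replicate 1, 11 without replicate 2, 7 without the block). Hmgcs1, the synthase before the rate-limiting step, was at 67, 52.5, 96.3 and 62.3 CPM in passaged cells and at 40.1, 22.1, 23.3 and 46.9 CPM at 20 Gy. The groups did not overlap (log2 −1.07, SE 0.24, adjusted p = 0.0102), and the call was lost without the block (adjusted p = 0.0619). Stard4, a carrier of cholesterol inside cells, went from 26.7, 33.9, 34.8 and 26.1 CPM to 9.41, 5.97, 5.87 and 9.09 CPM (−1.98, SE 0.21, adjusted p = 4.96e-04). Srebf2, which encodes the factor that drives this pathway, changed by −0.88 (adjusted p = 5.91e-04).

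Ribosome biogenesis genes fell for 13 of 20 members and rose for 0, with a median of −0.53; without replicate 1 the count was again 13, and without the block 4. Dkc1, the pseudouridine synthase of small nucleolar particles, was at 37.4, 40.6, 32.1 and 50.3 CPM in passaged cells and at 17.7, 16.4, 12.4 and 18.5 CPM at 20 Gy (−1.27, SE 0.09, adjusted p = 1.58e-04). Npm1, a nucleolar chaperone, went from 906, 772, 1035 and 927 CPM to 534, 373, 514 and 526 CPM (−0.88, SE 0.10, adjusted p = 6.79e-04). In both genes every 20 Gy library was below every passaged one.

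Of 21 collagens tested, 2 rose and 5 fell, with a median of 0.11 (3 and 5 without replicate 1, 0 and 1 without the block), where 19.7% of all genes were called higher and 18.3% lower. Col1a1, the main fibrillar collagen, was at 15885, 14804, 10465 and 14763 CPM in passaged cells and at 8162, 5728, 1444 and 9532 CPM at 20 Gy. The groups did not overlap, replicate 3 fell most, and the change was −1.41 (SE 0.35, adjusted p = 0.0161, and 0.198 without the block). Col8a2, a short-chain collagen, went the other way, from 0.762, 0.870, 0.0350 and 2.82 CPM to 10.0, 10.2, 0.507 and 25.7 CPM (log2 3.47, SE 0.18, adjusted p = 7.05e-05). The Col8a2 groups overlapped, and without the block the adjusted p was 0.128. Without replicate 3, 4 collagens rose.

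Of 25 matrix glycoproteins and crosslinkers, 9 rose and 3 fell (8 and 3 without replicate 1, 1 and 0 without the block), against 19.7% and 18.3% of all genes. Dcn, a small proteoglycan that binds collagen, went from 3.90, 0.326, 8.06 and 2.70 CPM to 74.9, 6.52, 49.8 and 78.6 CPM (log2 3.95, SE 0.36, adjusted p = 2.81e-04), and Eln, which encodes elastin, changed by 2.55 (SE 0.44, adjusted p = 0.00361). In both genes all 4 pairs rose but the groups overlapped, and Eln was not called without the block (adjusted p = 0.395). Contractile and YAP target genes gave 3 calls higher and 1 lower of 19, no larger a share than the 19.7% and 18.3% of all genes, with 0 higher without replicate 1 or without replicate 4 and 7 higher without replicate 3. Acta2, smooth muscle actin, was at 3881, 3637, 5237 and 3689 CPM and at 5977, 3271, 3217 and 3939.8 CPM (log2 −0.01, adjusted p = 0.987), and its sign depended on the setting. Ccn2, a YAP target, was called (0.63, SE 0.18, adjusted p = 0.0298) but not without replicate 1 (adjusted p = 0.131), replicate 2 (adjusted p = 0.0940) or replicate 4 (adjusted p = 0.112). Ajuba, a regulator of the same pathway, changed by −0.51 (SE 0.07, adjusted p = 0.00183).

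Antioxidant and glutathione genes rose for 8 of 23 and fell for 2 (5 and 1 without replicate 1, and 5 and 1 without replicate 4). Of all genes, 19.7% were called higher and 18.3% lower, and without replicate 1 it was 2023 and 2061 of 14478. Sod3, the extracellular superoxide dismutase, went from 32.3, 76.7, 63.5 and 32.1 CPM to 360.4, 1233, 308 and 409 CPM, without overlap (log2 3.40, SE 0.27, adjusted p = 1.85e-04). Gsta4, a glutathione transferase for lipid aldehydes, changed by 1.16 (SE 0.16, adjusted p = 0.00144, and 0.339 without the block). Slc7a11, the cystine importer, and Txnrd1, a thioredoxin reductase, fell by 0.86 and 0.32.

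The 20 Gy cells were then compared with untreated cells not labelled as passaged. This comparison shares the 20 Gy libraries with the first comparison, so its values are set beside it and not used as support. The test called 2224 of 14399 genes (15.4%), 1103 higher (7.66%) and 1121 lower (7.79%) at 20 Gy. This count depended on the pairing and on replicates 1 and 4: it was 288 without replicate 1, 374 without replicate 4, 359 with both added together, and 10 without the replicate block. Of the 37 named genes called, 17 kept their call without replicate 1.

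Mki67 was at 19.3, 15.6, 2.34 and 60 CPM in untreated cells, below every passaged library, and differed from 20 Gy by −0.97 (adjusted p = 0.0476). Against untreated cells 3 of 34 mitosis genes were lower at 20 Gy (Mki67, Ccnb1 and Kif11), with a median of −0.42 in place of −3.05, and 0 were lower without replicate 1. Of the 39 replication genes, Rrm1 and Rrm2 were called higher and Mcm6 lower, and 0 were called without replicate 1 or with replicates 1 and 4 added together. Rrm2 was at 38.2, 46.9, 4.84 and 39 CPM in untreated cells, lower than at 20 Gy in 4 of 4 pairs (log2 1.21, adjusted p = 0.0173, and 0.0671 without replicate 1). Homologous recombination genes gave 0 calls of 22 against untreated cells, with a median of −0.22. Of 22 nuclear envelope and chromatin genes, 7 were lower and 2 higher, with 1 and 1 without replicate 1. Lmnb1 was at 9.6, 10.9, 11.3 and 18.3 CPM in untreated cells, below every passaged library, and was not called (log2 −0.50, adjusted p = 0.0831). Hmgb2 was called lower (−0.69, adjusted p = 0.0204, and 0.109 without replicate 1).

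For p53 targets, 23 of 29 were higher at 20 Gy than in untreated cells and 1, Sesn1, was lower (adjusted p = 0.0211, and 0.112 without replicate 1), with a median of 1.02; without replicate 1, 10 were higher. Cdkn1a was at 83.7, 37.5, 128 and 76.3 CPM in untreated cells, below the passaged library of the same animal in all 4, and the difference of 20 Gy to it was 2.44 (adjusted p = 0.00298, and 0.0284 without replicate 1). Gdf15 passed in this comparison (1.84, adjusted p = 0.0294), but not without replicate 1 (adjusted p = 0.0721). Of 36 interferon-stimulated genes, 27 were higher at 20 Gy than in untreated cells and 0 lower, with a median of 1.41; without replicate 1 there were 18. Isg15 was at 8.67, 4.32, 22 and 5.32 CPM in untreated cells, above the passaged and below the 20 Gy library in every animal (20 Gy over untreated 2.27, adjusted p = 0.00276).

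Complement genes were lower at 20 Gy than in untreated cells for 8 of 15 and higher for 1, with a median of −1.08 (2 and 1 without replicate 1), although 11 were higher than in passaged cells. C3 was at 317, 2601, 558 and 248 CPM in untreated cells, the highest of the 4 groups in each animal (20 Gy over untreated −1.89, adjusted p = 0.00290). Ribosome biogenesis genes were higher at 20 Gy than in untreated cells for 13 of 20 (3 without replicate 1), with a median of 0.44, against −0.53 relative to passaged cells. Lysosomal genes had a median of −0.11 and cholesterol genes of −0.26 against untreated cells. Of 17 MHC class I genes, 1 was higher and 2 lower at 20 Gy, with a median of 0.08. The secretory list gave 10 and 6 of 37, collagens 1 and 6 of 21, and matrix glycoproteins 0 and 9 of 25. Without replicate 1 these 4 lists gave 0 and 1, 4 and 1, 0 and 0, and 0 and 2. H2-T23 was lower than in untreated cells (−0.88, adjusted p = 0.00463), and Ccl2 was higher (2.28, adjusted p = 0.00392). Saa3 was at 182, 2.62, 6789.7 and 152 CPM in untreated cells, so that its difference to 20 Gy was not called (−1.02, adjusted p = 0.443). Ccn3 (−1.41, adjusted p = 0.0152), Eln (−2.47, adjusted p = 0.00717) and Col8a2 (−2.98, adjusted p = 0.00715) were lower at 20 Gy than in untreated cells. Without replicate 1 the adjusted p was 0.0847, 0.0480 and 0.0564. Sod3 (−0.40, adjusted p = 0.0926) and Dcn (−0.75, adjusted p = 0.0975) were not called, but were higher at 20 Gy in 0 of 4 pairs.

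**Figure D4:**
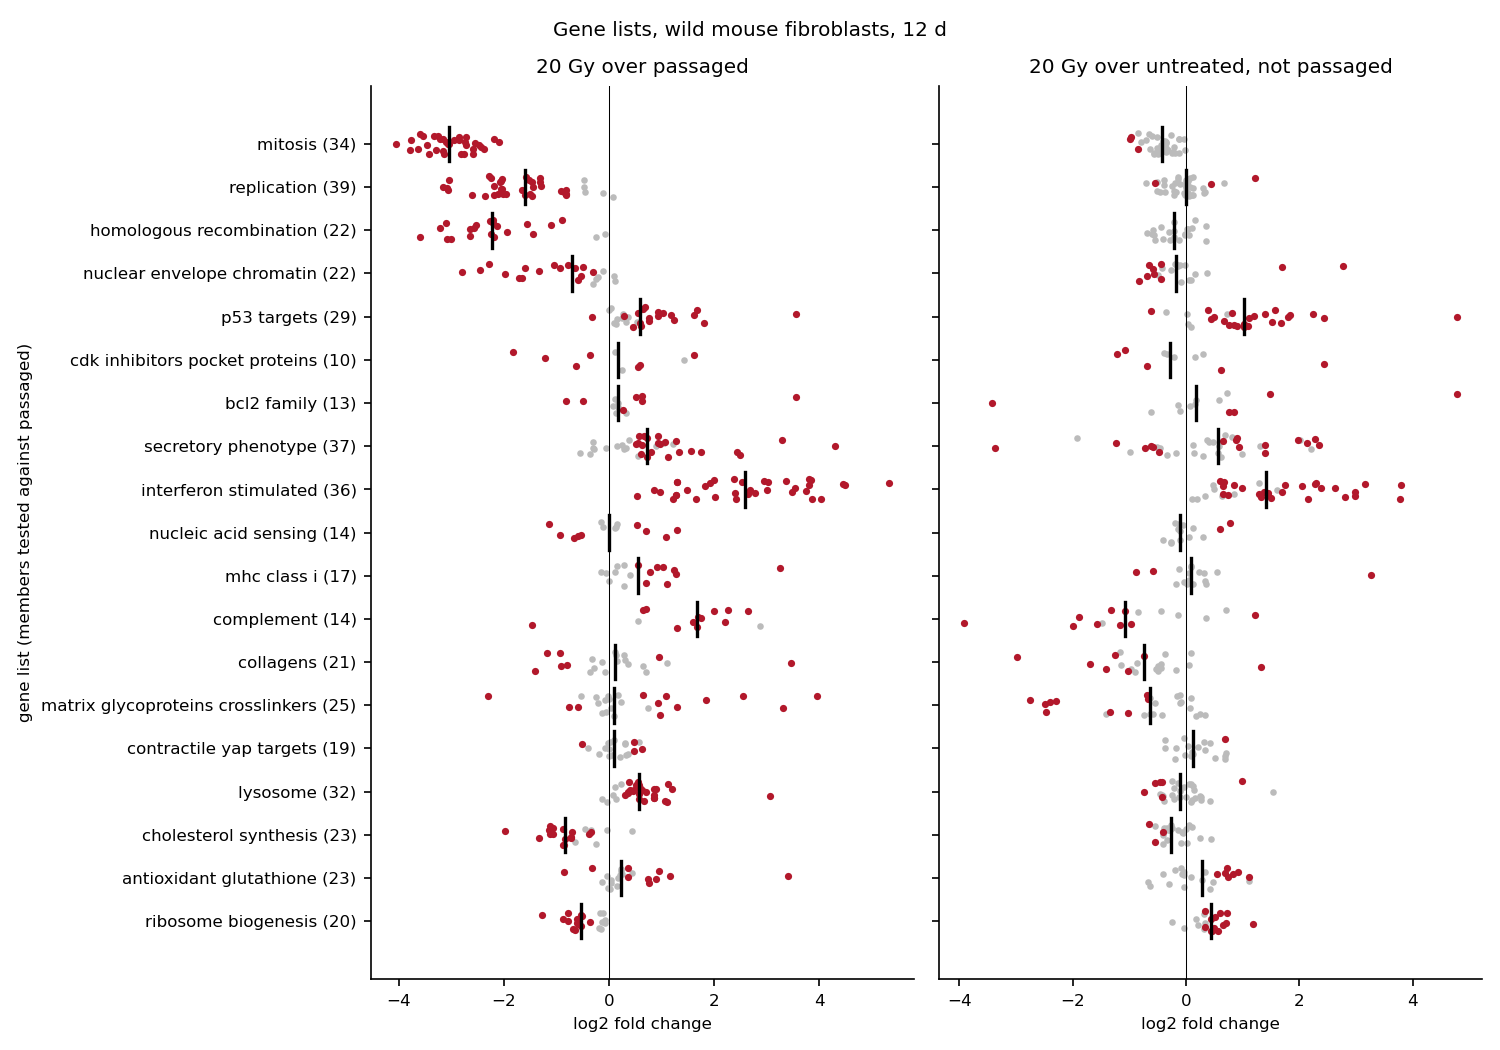
Log2 fold change (x axis) of the members of 19 gene lists (y axis) for 20 Gy over passaged (left) and over untreated cells (right), with called genes in red and the median as a bar. The median of the mitosis list is −3.05 on the left and −0.42 on the right, and that of the interferon-stimulated genes is 2.59 and 1.41.

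The same contrast in C56BL6 fibroblasts was set against that of the wild mice by a test of the difference between the 2 changes. It called 504 of 16039 genes (3.14%), 251 with a more positive change in wild mice (1.56%) and 253 with a more negative one (1.58%). The count was 221 without wild replicate 1, 221 without wild replicate 4, 220 with both added together, and 0 without the animal block, where 880 genes had an unadjusted p under 0.05. Since reads of wild mice were mapped to the reference genome, levels are compared within a population only.

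Inhibitor genes of the cell cycle were among the genes that differed. Cdkn2a was at 59.5, 74.9, 35.9 and 47.6 CPM in passaged and at 90.3, 181, 126 and 103 CPM in 20 Gy cells of C56BL6 mice, a change of 1.23, against 0.11 in wild mice (difference −1.15, SE 0.21, adjusted p = 0.0163). Cdkn2b changed by 1.58 in C56BL6 and by 0.24 in wild mice (difference −1.37, SE 0.13, adjusted p = 0.00151). Cdkn1a changed by 1.03 and 1.61 (difference 0.55, SE 0.12, adjusted p = 0.0355). Without wild replicate 1 the adjusted p of these 3 differences was 0.0449, 0.00921 and 0.0858.

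C3 changed by 4.26 in C56BL6 and by 1.67 in wild mice (difference −2.63, SE 0.41, adjusted p = 0.00901), and Saa3 by 9.12 and 6.54 (difference −2.55, SE 0.55, adjusted p = 0.0341, and 0.0670 without wild replicate 1). Lcn2, an iron-binding acute-phase protein, was at 0.720, 4.06, 1.05 and 0.529 CPM in passaged and 3.21, 14, 21.3 and 4.83 CPM in 20 Gy cells of wild mice, and in C56BL6 mice at 0, 0.187, 0.539 and 0.584 CPM and at 2.23, 64.5, 97.7 and 103 CPM. Its changes were 2.86 and 7.73 (difference −4.92, SE 0.58, adjusted p = 0.00312). Dpt, which encodes the matrix protein dermatopontin, changed by 2.92 and 6.30 (difference −3.45, SE 0.47, adjusted p = 0.00557), and Syt13, a synaptotagmin, by −0.06 and 2.99 (difference −3.14, SE 0.51, adjusted p = 0.0105). Against untreated wild cells Dpt was lower at 20 Gy (−2.50, adjusted p = 0.00929, and 0.0583 without replicate 1).

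In the other direction, Col8a2 changed by 3.47 in wild and −0.24 in C56BL6 mice (difference 3.68, SE 0.32, adjusted p = 0.00151). Enpp1, which makes pyrophosphate outside cells and also cleaves the messenger of cGAS, went from 9.57, 26.1, 13.1 and 8.37 CPM to 33.5, 147, 33.1 and 39.1 CPM in wild mice and from 15.6, 12.4, 18.4 and 19.4 CPM to 10.8, 8.73, 10.6 and 11.8 CPM in C56BL6 mice (difference 2.58, SE 0.22, adjusted p = 0.00151). In untreated wild cells Enpp1 was at 106, 467, 49.2 and 109 CPM, above the 20 Gy library in every pair. The change of 20 Gy over untreated was −1.31 (adjusted p = 0.00941, and 0.0614 without replicate 1). Stmn2, a tubulin-binding stathmin, differed by 2.32 (SE 0.44, adjusted p = 0.0203) and Ifi27l2b by 2.46 (SE 0.40, adjusted p = 0.0105); both, and Syt13, were not called without wild replicate 1 (adjusted p = 0.0660, 0.0607 and 0.0531). Of the mitosis genes 1, Foxm1, was called in the test of the difference (0.57, adjusted p = 0.0455), and 0 without wild replicate 1 (Foxm1 adjusted p = 0.133). The difference was positive for all 34, with a median of 0.74, where 7926 of all 16039 genes had a positive one. Without wild replicate 1 it was positive for 33 of 34, with a median of 0.48. These signs are not independent of one another. Of the interferon-stimulated genes Gbp2 and Gbp3 were called, and Gbp2 alone without wild replicate 1 (adjusted p = 0.0156, against 0.0779 for Gbp3). These lists had medians of −3.05 and 2.59 in wild mice and of −3.70 and 2.88 in C56BL6 mice. Contractile and YAP target genes gave 6 calls of 19, all more positive in wild mice, and 0 without wild replicate 1. Cholesterol synthesis genes gave 4 of 23, all more negative, and 2 without wild replicate 1. Collagens gave 6 more positive and 1 more negative of 22, with 6 and 0 without wild replicate 1. Of all genes, 3.14% were called.

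**Figure D5:**
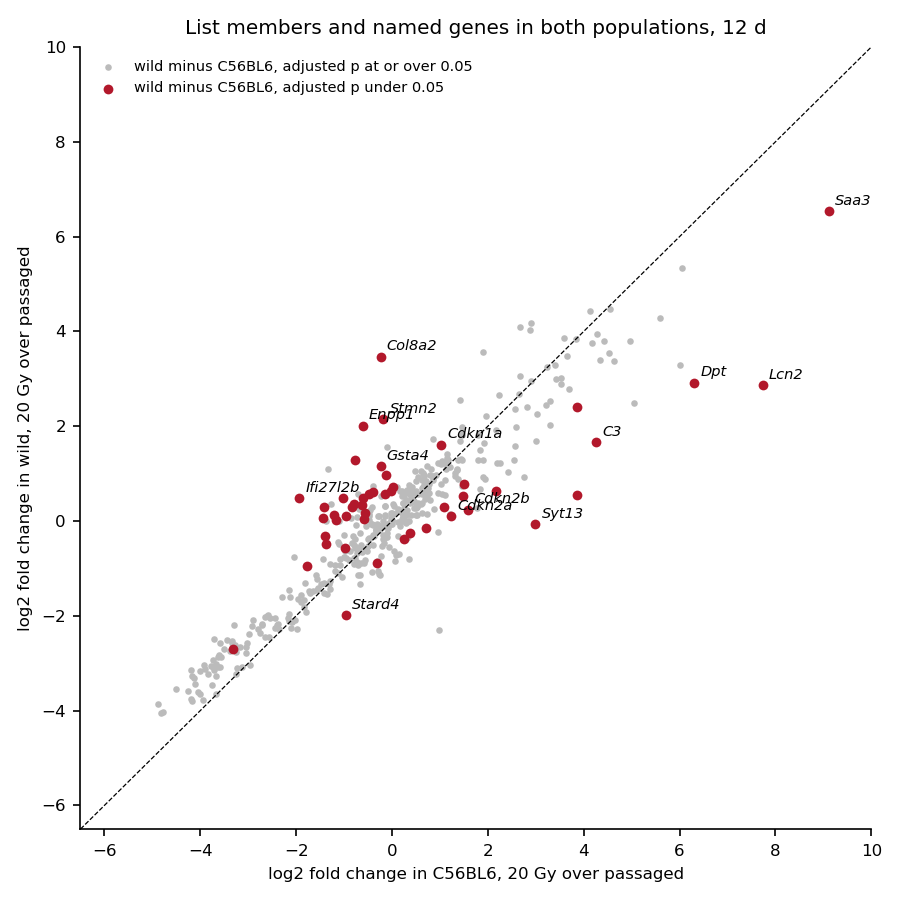
Log2 fold change of 20 Gy over passaged in C56BL6 (x axis) and wild mice (y axis) for 457 list members and named genes, with the 48 past the threshold of the difference in red and equality dashed. Col8a2 and Enpp1 lie above the line, and Saa3, Lcn2, Dpt and C3 below it.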

How the data were processed

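The mouse table holds raw read counts per gene, which the authors made with featureCounts after trimming with Trim Galore and mapping with HISAT2 to GRCm39, per the submitters' processing notes. The header records no strand option and no counting of reads with several places, so antisense, overlapping and near-identical genes (Ifit, Oas, Saa, H2, Trim30, Csf2rb families) are uncertain. The deposited gene length column, another value, entered no test. The spiny mouse table was not used here, and of 56980 gene IDs 56236 matched a symbol. Per-library levels are CPM computed from the counts.

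Counts were tested with edgeR 4.0.16 in R 4.3.3 (TMM scaling, low counts filtered, quasi-likelihood test, replicate number as a block, Benjamini-Hochberg adjustment over all genes), and the code was checked on simulated counts. DESeq2 1.42.0, other scaling, no filter, no block and each replicate left out were alternatives. Further ones were all 4 wild 12 d groups in 1 fit, replicates 1 and 4 as 1 animal in the block and, added after seeing the data, replicates 1 and 4 summed. The pairing comes from the animal codes in the labels; deviations from group means of same-numbered passaged and 20 Gy libraries correlated at 0.70 to 0.87. The block was used because of these codes.

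The members and the 19 gene lists were chosen with earlier results of these data known. Named genes were a panel of 26, the 8 genes that rose and the 8 that fell most, 2 called genes per list, and 4 genes in each direction for the difference between populations, the last 3 with a mean of at least 5 CPM in the higher group. Further list members were picked after their values were seen. Motif matches were sought in the 250 bases before the canonical start of 14345 genes. Some members are not reported here.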

Additional observations from a re-analysis of the deposited data

Results flagged for a closer look

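In groups of 4 libraries, a library was singled out when its gap to the nearest other as a share of the group's range exceeded Dixon's critical value for 4 samples. Chance gives this in about 1 in 20 groups of independent, normally distributed values. That rate does not apply here, since replicates 1 and 4 were not distinguishable as animals and many genes vary together. A library was singled out in 26 of 144 groups examined, 17 of them through replicate 3. Among passaged libraries replicate 3 stood apart in Rrm2 (30.7 CPM), Mmp3 (153 CPM), Irf7 (9.74 CPM), Acta2 (5237 CPM), Saa3 (13.1 CPM), Ifit3 (4.1 CPM), Serping1 (142 CPM), Eln (18.9 CPM) and Stmn2 (4.24 CPM). Among 20 Gy libraries replicate 3 stood apart in Eda2r (31.1 CPM), Il6 (70.5 CPM), Mmp3 (958 CPM), Saa3 (1787 CPM), Ifit1 (149.5 CPM), Ifit3 (109 CPM), Eln (46.3 CPM) and Stmn2 (17.6 CPM). Among passaged libraries replicate 2 stood apart in Cdkn1a (91.1 CPM), H2-Q4 (0.326 CPM), Csf2rb (26.2 CPM) and Lcn2 (4.06 CPM). Among 20 Gy libraries replicate 2 stood apart in C3 (866 CPM), Sod3 (1233 CPM), Npm1 (373 CPM), Csf2rb (33.3 CPM) and Enpp1 (147 CPM). The log2 change of 20 Gy over passaged was more positive in wild than in C56BL6 mice, by the test of the difference, for Cdkn1a (0.55), Col8a2 (3.68), Gsta4 (1.36), Enpp1 (2.58), Ifi27l2b (2.46) and Stmn2 (2.32). The log2 change of 20 Gy over passaged was more negative in wild than in C56BL6 mice, by the test of the difference, for Cdkn2a (−1.15), Cdkn2b (−1.37), C3 (−2.63), Saa3 (−2.55), Stard4 (−1.04), Csf2rb (−5.91), Lcn2 (−4.92), Dpt (−3.45) and Syt13 (−3.14). Csf2rb was at 0 in all passaged C56BL6 libraries, so its fitted difference depends on the prior count. Without wild replicate 1, the calls of Cdkn1a, Saa3, Gsta4, Csf2rb, Syt13, Ifi27l2b and Stmn2 were lost.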

How the results depend on the processing

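The counts of genes called against passaged cells changed little with other scaling, DESeq2 or no filter, and most without the replicate block. With no replicate block, the paired structure ignored, 1510 genes were called, 632 higher and 878 lower, with 699 at least 2-fold, 10 against untreated cells and 0 in the difference between populations. Leaving out each replicate in turn gave 3241 to 5127 genes against passaged cells (1721 to 2537 higher and 1520 to 2590 lower), 288 to 2469 against untreated cells and 221 to 624 in the difference between populations; the lowest were without replicate 4, without replicate 1, and without wild replicate 1 or 4. With replicates 1 and 4 summed, an alternative chosen after seeing the data, 359 were called against untreated cells and 220 in the difference, and with no expression filter the difference gave 1480. Within a comparison, each fit with a replicate left out has the same reduced number of samples and degrees of freedom. Leaving out replicates 1 to 4 in turn gave 288, 2469, 2147 and 374 genes against untreated cells. In the difference between populations it gave 221, 544, 624 and 221. The cause was not tested. The change of Acta2 reversed sign to 0.03 without the block, 0.04 without replicate 2, 0.20 without replicate 3 and 0.01 with replicates 1 and 4 as 1 animal, and ran from −0.25 (without replicate 1) to 0.20 over the replicates left out. Of the other tested named-gene values recomputed under alternatives, 739 kept direction and side of the threshold, 53 lost the call and 5 gained it. The change of Syt13 against passaged cells, named only for the difference between populations and outside this tally, went from −0.06 to 0.34 without replicate 1, 0.26 with replicates 1 and 4 summed and 0.28 in DESeq2. Genes near the floor of 3 counts in passaged cells, such as Oas2, have fitted changes that depend on the prior count.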

Other observations

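The 10 Gy cultures of the same animals entered only the alternative fit of all 4 wild 12 d groups together. Here their values are set beside the 20 Gy cultures without a test. The median log2 ratio of 10 Gy over 20 Gy (CPM + 0.5) across the 36 interferon-stimulated genes was 1.22, 0.30, 0.08 and 0.63 in replicates 1 to 4, and 32 of the 36 were higher at 10 Gy in all 4 pairs, against 1228 of all 14384 genes. For the 34 mitosis genes it was 0.34, 0.65, 0.54 and 0.51, with 31 higher at 10 Gy in all 4 pairs.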
